A study of Homo sapiens with 30 samples.

Results

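The regions described here were bound by SAP30 in MDA-MB-231 cells away from annotated start sites, carried H3K9Ac, and had no reproducible SIN3A or SIN3B peak. A SAP30 consensus region was built from the summits of both SAP30 replicates, each extended by 500 bp and merged where they met. Of 24796 such regions, 5726 (23.1%) were chosen by measured values. They overlapped no SIN3A or SIN3B consensus region, lay outside the 1000 bp on either side of annotated start sites (genes for proteins and for long noncoding RNA), and overlapped an H3K9Ac consensus region of parental cells. They are called distal SAP30-only acetylated regions. The parental SAP30, SIN3A, SIN3B and H3K9Ac peaks that chose them are given as description, whereas Pol II, H3K4me3 and the knockout libraries had no part in the choice.

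The study used chromatin immunoprecipitation and sequencing (ChIP-seq) in MDA-MB-231, a human cell line established from a triple-negative breast tumour, and asked where SAP30 is bound and what its removal changes. Parental cells gave lists for SAP30, SIN3A and SIN3B, and parental cells and SAP30-KO1 both gave lists for RNA polymerase II (Pol II), H3K4me3 and H3K9Ac. SAP30-KO1 is a CRISPR/Cas9 knockout in which single-cell clones were pooled. Each of these 9 groups had 2 libraries, the labels do not say whether these came from separate cultures, and each library had a list of 10861 to 54622 peak summits. SAP30 had no list from SAP30-KO1 cells, so these lists do not show the loss of the targeted protein, and 12 input and total H3 samples were not analysed here. Sequencing depth is unknown, and with 2 libraries against 2 the exact permutation test cannot go below p = 0.333, so no difference between the lines could pass a threshold of 0.05.

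SAP30 is a small subunit of the SIN3 complex, in which the scaffold proteins SIN3A and SIN3B hold the histone deacetylases HDAC1 and HDAC2. Deacetylases remove acetyl groups from histone tails, and H3K9Ac is found at active promoters and enhancers. Enhancers are distal elements bound by sequence-specific factors such as AP-1, a dimer of FOS and JUN family proteins, and many carry Pol II but little H3K4me3, the mark of active start sites.

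To show what SAP30 was bound to, sequences were read from the GRCh37 genome at the best-ranked SAP30 summit of single regions, 60 bp to each side, on the plus strand from 5′ to 3′. Each is named by its nearest protein-coding gene. The first 3 are the regions in introns or between genes with the best SAP30 ranks. The next 3 are the best-ranked of those with an AP-1 motif centred within 10 bp of the summit, a set added after the motif counts were known. Capitals mark TGANTCA, the AP-1 motif, and TTGCNNAA, a C/EBP motif, on either strand.
TRIB2, chr2:12596691-12596811: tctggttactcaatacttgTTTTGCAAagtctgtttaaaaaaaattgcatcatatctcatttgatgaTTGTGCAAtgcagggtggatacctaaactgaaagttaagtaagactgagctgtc
RUNX2, chr6:45413697-45413817: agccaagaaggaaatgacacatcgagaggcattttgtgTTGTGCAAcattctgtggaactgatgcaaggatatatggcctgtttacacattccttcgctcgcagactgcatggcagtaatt
MCFD2, chr2:47194424-47194544: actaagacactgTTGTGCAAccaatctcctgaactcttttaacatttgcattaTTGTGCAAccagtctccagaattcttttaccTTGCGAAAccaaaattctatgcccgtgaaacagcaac
PSG4, chr19:43705179-43705299: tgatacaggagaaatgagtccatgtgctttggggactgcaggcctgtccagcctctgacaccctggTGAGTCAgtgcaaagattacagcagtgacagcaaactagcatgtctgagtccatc
CAB39L, chr13:49888147-49888267: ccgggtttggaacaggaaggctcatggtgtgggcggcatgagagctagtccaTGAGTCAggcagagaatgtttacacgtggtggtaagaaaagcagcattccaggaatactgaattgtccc
ITGA5, chr12:54805305-54805425: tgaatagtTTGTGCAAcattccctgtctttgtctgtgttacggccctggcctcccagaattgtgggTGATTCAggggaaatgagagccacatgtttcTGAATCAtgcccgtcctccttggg
The first 3 sequences held no AP-1 match and 2, 1 and 3 C/EBP matches. TRIB2 encodes a pseudokinase, RUNX2 a Runt-family transcription factor, and MCFD2 a cofactor for the export of clotting factors from the endoplasmic reticulum. ITGA5, the alpha chain of the fibronectin receptor, had 2 AP-1 matches, centred 9 and 40 bp from the summit. PSG4 belongs to a family of near-identical neighbouring genes, so the placement of reads there is uncertain.

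The next 4 sequences are from regions that lost a peak in SAP30-KO1, in the same build, strand and length, with each CG dinucleotide in capitals because CpG content went with Pol II at these regions. Among regions in introns or between genes, MMP14 and ZNF148 had the best parental ranks of those without H3K9Ac in both knockout libraries, and HAPLN1 and GUCY2D of those without Pol II in both.
MMP14, chr14:23322357-23322477: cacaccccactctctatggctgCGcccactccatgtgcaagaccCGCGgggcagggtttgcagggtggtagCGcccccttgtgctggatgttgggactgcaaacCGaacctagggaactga
ZNF148, chr3:125076312-125076432: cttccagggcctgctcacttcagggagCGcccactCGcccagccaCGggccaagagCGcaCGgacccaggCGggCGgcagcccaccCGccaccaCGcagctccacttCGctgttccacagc
HAPLN1, chr5:83018013-83018133: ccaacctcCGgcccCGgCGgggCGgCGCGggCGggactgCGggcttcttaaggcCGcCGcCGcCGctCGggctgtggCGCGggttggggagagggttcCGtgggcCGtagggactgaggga
GUCY2D, chr17:7893378-7893498: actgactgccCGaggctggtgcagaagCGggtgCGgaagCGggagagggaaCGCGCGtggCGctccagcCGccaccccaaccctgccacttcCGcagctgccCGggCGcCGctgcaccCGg
They held 5, 10, 17 and 14 CG dinucleotides, against a mean of 3.81 in the same 121 bp over all distal SAP30-only acetylated regions. These 4 are not typical in this respect, since the 215 regions that lost H3K9Ac had a mean of 3.45 and the 322 that lost Pol II 5.20. MMP14 encodes a membrane-bound matrix metalloproteinase, ZNF148 a zinc finger transcription factor, HAPLN1 a link protein that fastens proteoglycans to hyaluronan, and GUCY2D the guanylate cyclase of photoreceptors.

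The distal SAP30-only acetylated regions lay mostly inside genes and far from start sites. By place, 62.3% (3567) were in introns, 32.2% (1841) between genes, 3.55% in exons outside UTRs and 1.85% in 3′ UTRs. The median distance to the nearest start site was 14.6 kb, with quartiles of 6.11 and 34.2 kb. It was 14.9 kb for the 3115 distal SAP30-only regions without H3K9Ac, 9.21 kb for 2260 distal acetylated SAP30 regions with SIN3A or SIN3B, and 19.9 kb for 9227 distal H3K9Ac regions without SAP30. This last set met no SAP30 consensus region, but 20.5% and 9.55% of it held a SAP30 summit in SAP30 replicates 1 and 2. Of the 5726 regions, 20.8% lay within 5 kb of a start site and 15.4% lay beyond 50 kb. They were densest on chromosomes 17 and 19, at 4.24 and 4.09 per Mb, and sparsest on chromosome X, at 0.573 per Mb. These densities were not set beside those of all SAP30 regions or of genes.

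SAP30 peaks at these regions were weaker than at promoters. The place of a peak in its own list was expressed as a percent rank, from 0 for the highest score to 100 for the lowest. The SAP30 rank had a median of 57.0 in replicate 1 and 60.7 in replicate 2, where 13132 promoter SAP30 regions had 20.4 and 21.1. The mean rank of the 2 replicates ran from 5.73 to 98.8, so the regions cover nearly the whole range of SAP30 peaks. At the limits of the choice, the 3 regions nearest to a start site lay 1002, 1009 and 1010 bp away, and the 3 acetylated SAP30-only regions last counted as promoters 999, 998 and 989 bp away. The widest gaps to parental H3K9Ac summits were 998, 995 and 994 bp, and the nearest 3 regions left out for lack of H3K9Ac had gaps of 1001, 1002 and 1005 bp.

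The absence of SIN3 held for the replicates together and less well for single libraries. A SIN3B summit lay inside 31.7% of the regions in SIN3B replicate 1 and 10.3% in replicate 2, with median ranks of 65.6 and 76.0. By region, 2379 had a SIN3B summit in 1 replicate, 13 in both without a consensus region there, and 3334 (58.2%) in neither. SIN3A summits were rare, in 1.80% and 1.47% of the regions. The parental libraries therefore hold weak, unreplicated SIN3B peaks at a large share of the regions named SAP30-only.

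H3K9Ac summits flanked the SAP30 summit, while Pol II summits lay close to it. An H3K9Ac summit was inside the region in 90.0% and 89.6% of the regions in parental replicates 1 and 2. Its median distance from the SAP30 summit, where one lay within 1000 bp, was 294 and 297 bp, with 45.4% and 45.8% between 200 and 400 bp and 9.98% and 9.89% within 100 bp. Parental Pol II summits had medians of 102 and 100 bp, with 48.7% and 49.6% within 100 bp. H3K4me3 stood between them, with medians of 176 and 172 bp. For comparison, the best-ranked SAP30 summit of 1 replicate lay a median of 49 bp from the nearest SAP30 summit of the other, whichever came first. In SAP30-KO1 the medians were 295 and 297 bp for H3K9Ac and 104.5 and 119 bp for Pol II, so where peaks remained their layout was much as in parental cells.

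**Figure D1:**
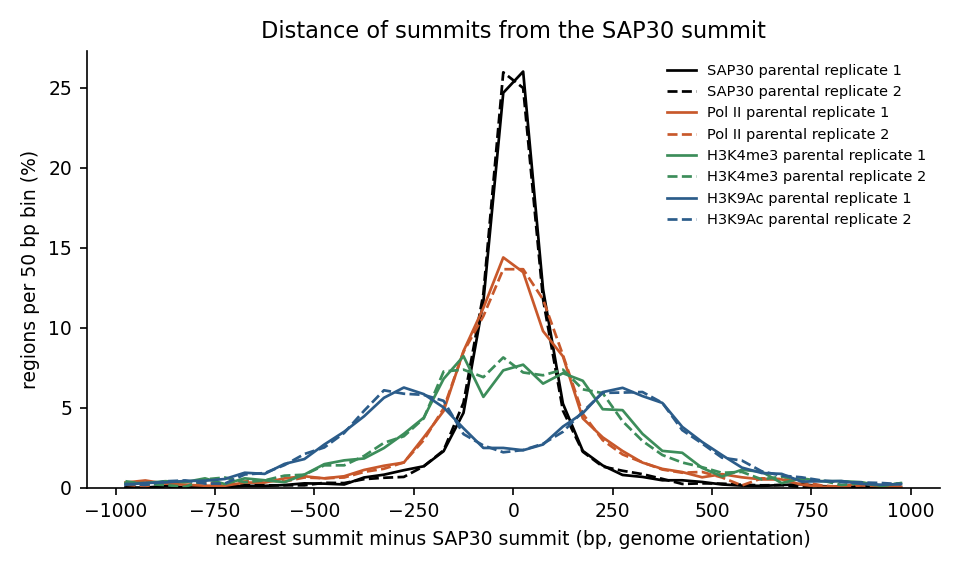
Percent of regions with a summit within 1000 bp, in bins of 50 bp, by the distance in bp of the nearest parental summit of each mark from the SAP30 summit; lines stand for the 2 parental replicates of each mark. The SAP30 lines give the distance from the best-ranked SAP30 summit of the other replicate. Pol II peaks at the SAP30 summit and H3K9Ac forms shoulders on both sides with a dip between them.

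AP-1 motifs were concentrated at the SAP30 summits. Windows of 301 bp on the best-ranked summit were searched on both strands, and 43.5% (2488) of the distal SAP30-only acetylated regions held TGANTCA. The share was 43.2% and 42.8% around the summits of replicate 1 and replicate 2. Windows of the same length moved 1000 bp to the left and right held the motif in 9.24% and 9.31%. Of the regions with a match, 50.6% had one centred within 50 bp of the summit, and 448 held more than 1.

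The AP-1 share separated distal from promoter SAP30 regions more than it separated acetylated from other distal ones. It was 48.4% in distal SAP30-only regions without H3K9Ac, 36.8% in distal acetylated regions with SIN3, 6.60% at promoter SAP30 regions and 23.7% over all 24796 SAP30 regions. In distal H3K9Ac regions without SAP30 it was 8.57%, but there the 301 bp windows were centred on H3K9Ac summits. At the distal SAP30-only acetylated regions, parental H3K9Ac summits lay a median of 294 and 297 bp from the SAP30 summit. The 8.57% is therefore not a like comparison and does not show how often such regions hold the motif outside these windows. Matches within a window are letters in the genome and were not tested for binding by any factor.

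**Figure D2:**
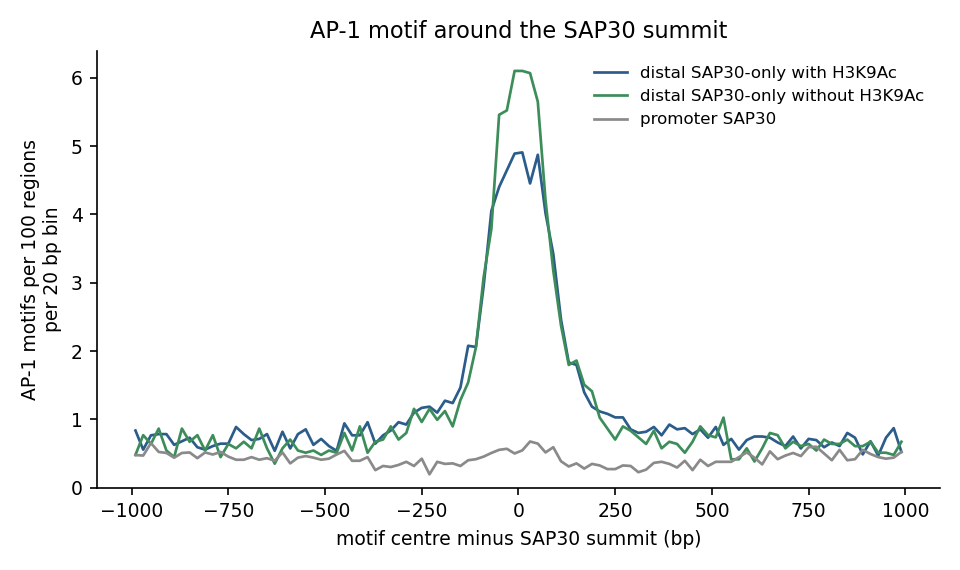
AP-1 motifs (both strands) per 100 regions in bins of 20 bp, by the distance in bp of the motif centre from the SAP30 summit, for distal SAP30-only regions with and without H3K9Ac and for promoter SAP30 regions. Both distal sets peak around the summit, at 4.91 motifs per 100 regions with H3K9Ac and 6.10 without it, and the promoter set stays low there, between 0.503 and 0.678.

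Other motifs rose less above the flanks. GGAATG, bound by TEAD factors, was in 23.4% of the windows, in 15.1% and 15.4% of the left and right flanks, in 16.1% over all SAP30 regions and in 22.4% of distal SAP30-only regions without H3K9Ac. TGTGGT, bound by RUNX factors, was in 24.9%, in 20.1% and 20.8% of the flanks, in 16.7% over all SAP30 regions and in 27.9% of distal SAP30-only regions without H3K9Ac. Neither motif was thus particular to the acetylated set. The ETS motif TTCCGG was in 8.47% against 3.25% and 3.37%, and the GC-box GGGCGG in 21.3% against 8.52% and 8.16%. The latter pair was more frequent over all SAP30 regions, at 16.7% and 46.5%. GC content also moved, from 46.8% in both flanks to 53.7% at the summit, and its part in these counts was not tested.

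C/EBP motifs were more frequent at the strongest SAP30 peaks than over the regions as a whole. TTGCNNAA was searched after the sequences of the best-ranked regions had been seen, so its counts are a description of the regions that prompted it. It was in 29 of the 100 best-ranked distal SAP30-only acetylated regions, 8 of the best 20, and 9 of the last-ranked 100. Over all 5726 regions it was in 14.8%, close to the 13.5% and 13.2% of the flanks, over all SAP30 regions in 10.2%, and in distal SAP30-only regions without H3K9Ac in 19.3%. Every match of it is also a match of the broader TTGCNNNA, present in 39.5% of the regions and in 40.3% and 39.3% of the flanks. AP-1 was in 44 of the same 100 best-ranked regions.

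The regions differed among themselves along H3K4me3, CpG content and AP-1. The 1450 with H3K4me3 in both parental libraries had a mean of 16.9 CpG per 301 bp, and 19.0% of them held the AP-1 motif. The 3886 with H3K4me3 in neither had a mean of 5.46 CpG, and 52.4% held AP-1. Pol II followed the first kind: in parental replicates 1 and 2 it was in 49.0% and 59.3% of regions with H3K4me3 and in 17.0% and 24.9% of those without. Pol II was in 39.7% of regions between genes and 25.4% of intronic ones, as means of the parental libraries. It was also more frequent where the parental H3K9Ac rank was better, from a mean of 63.7% in the first of 4 equal groups by that rank through 30.4% and 17.0% to 11.1% in the last.

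Pol II was found at fewer of the distal SAP30-only acetylated regions in both knockout libraries than in either parental library. It was in 26.2% (1502) and 34.9% (1996) of the regions in parental replicates 1 and 2, and in 20.3% (1164) and 15.3% (875) in SAP30-KO1. The groups did not overlap. In these bulk libraries, a peak lost in a share of the cells and a weaker peak in all of them cannot be told apart. The means were 30.5% ± 6.10 and 17.8% ± 3.57 (SD, n = 2 each), a difference of -12.7 percentage points and a ratio of 0.583, with p = 0.333 by the two-sided exact permutation test, the smallest this design can give. With only the better-ranked 50% of every list, which keeps 1559 regions, the difference was -3.40 points (exact permutation p = 0.667). Leaving out 1 Pol II library at a time gave -8.43 points without parental replicate 2 and -17.1 points without parental replicate 1.

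The Pol II lists were not shorter in SAP30-KO1 on average. The Pol II lists held 20736 and 23002 summits in parental cells and 23342 and 22123 in SAP30-KO1. Of these, 8.16% and 9.84% lay in the distal SAP30-only acetylated regions in parental cells and 6.01% and 4.79% in SAP30-KO1. Within 1000 bp of a start site the shares were 71.0% and 64.9% in parental cells and 73.4% and 77.1% in SAP30-KO1. At equal list length the difference in the share of regions with Pol II was -13.4 points, and in the 3239 regions with no SIN3A or SIN3B summit in either replicate it was -11.7 points (exact permutation p = 0.333 for each).

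Other sets shifted in the same direction by different proportions. The ratio of the SAP30-KO1 mean to the parental mean was 0.949 at promoter SAP30 regions, 0.764 at 2436 promoter SAP30-only regions with H3K9Ac, and 0.748 at distal acetylated regions with SIN3. It was 0.625 at distal SAP30-only regions without H3K9Ac, where Pol II was in 4.32% and 2.70%, and 0.636 at distal H3K9Ac regions without SAP30, where it was in 8.77% and 5.58%. Divided by the share at promoter SAP30 regions of the same library, the share at distal SAP30-only acetylated regions was 0.315 and 0.411 in parental cells and 0.250 and 0.196 in SAP30-KO1 (exact permutation p = 0.333). The groups also did not overlap against promoter SAP30-only regions with H3K9Ac or distal acetylated regions with SIN3. Against distal SAP30-only regions without H3K9Ac they overlapped, at 7.78 and 6.62 in parental cells and 7.63 and 5.60 in SAP30-KO1 (exact permutation p = 0.667). At distal H3K9Ac regions without SAP30 the libraries had 6.68% and 10.9% in parental cells and 6.67% and 4.49% in SAP30-KO1. Replicate 1 was thus nearly equal in the 2 lines there. The closeness of 0.636 to the 0.583 of distal SAP30-only acetylated regions therefore rested on replicate 2. Some of these distal H3K9Ac regions held a SAP30 summit in a single library, as given above.

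**Figure D3:**
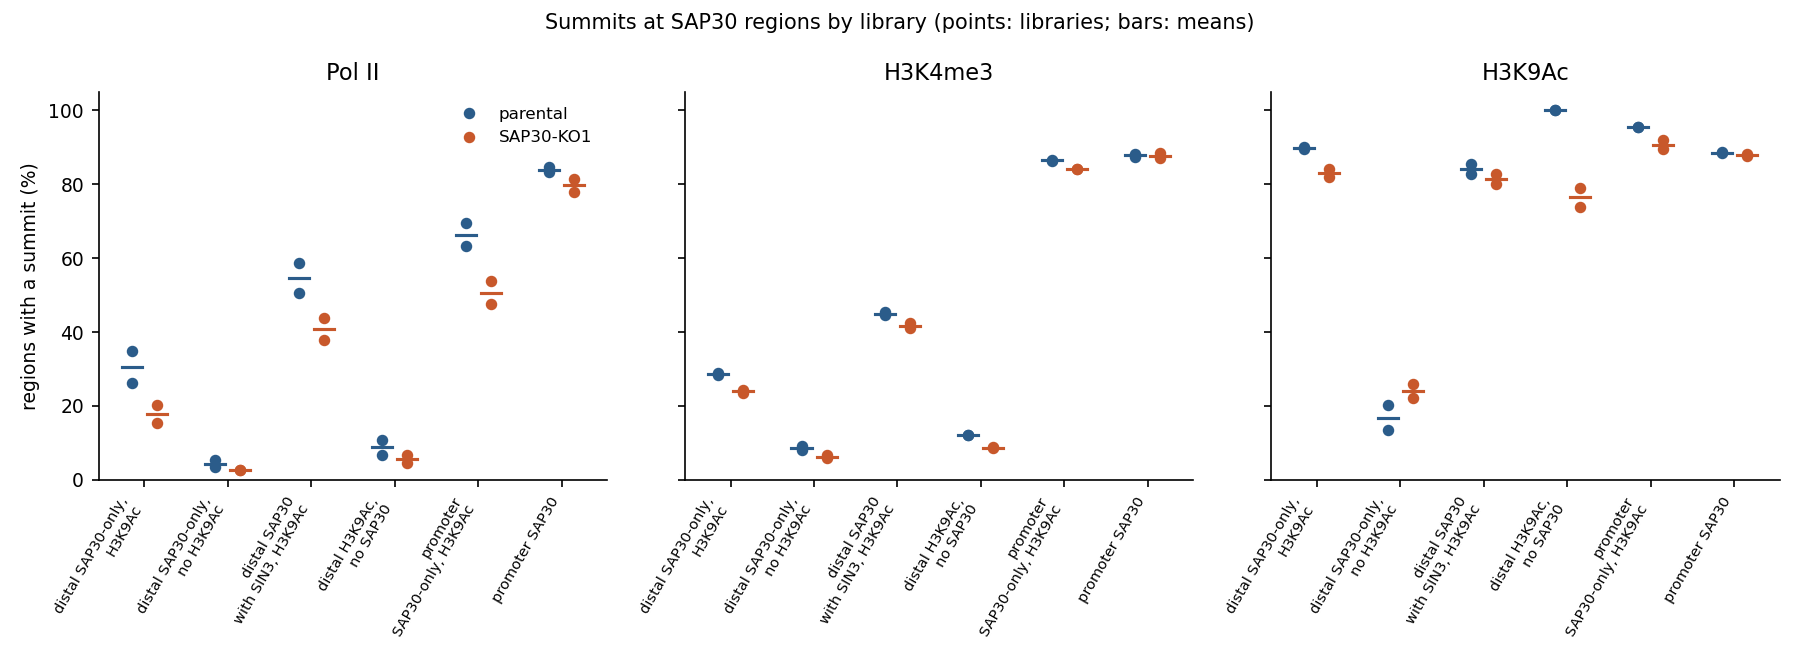
Percent of regions with a Pol II, H3K4me3 or H3K9Ac summit in each library, for 6 sets of regions; each point is 1 library and colours separate parental from SAP30-KO1. At distal SAP30-only acetylated regions the Pol II points are 26.2 and 34.9 in parental cells and 20.3 and 15.3 in SAP30-KO1; distal H3K9Ac regions without SAP30 stand at 100 for parental H3K9Ac because they were chosen for it.

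The reduction was present in each class of the regions examined. Ratios of SAP30-KO1 to parental means were 0.534 with the AP-1 motif and 0.611 without it, 0.559 in introns and 0.602 between genes, and 0.576 within 5 kb of a start site and 0.584 beyond 50 kb. With H3K4me3 in both parental libraries the ratio was 0.658, and with H3K4me3 in neither it was 0.508. Differences between these ratios were not tested.

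Counted region by region, losses of Pol II outnumbered gains. A Pol II consensus region of parental cells was called lost when it met no extended Pol II summit of either knockout library, and gained when the reverse held. Of the parental Pol II regions that met a distal SAP30-only acetylated region, 337 of 1280 (26.3%) were lost, where 8.39% of all 15097 were. Of those in SAP30-KO1, 10 of 614 (1.63%) were gained, where 0.878% of all 12297 were. Among other distal Pol II regions with SAP30 the share lost was 15.6% (210 of 1343). With no SAP30 consensus region it was 37.3% (315 of 844) at distal Pol II regions, and at promoters with SAP30 it was 3.14%.

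Pol II at these regions was weak, and the share lost went with rank. All parental Pol II regions were divided into 4 equal groups by rank. In group 4, with the lowest scores and ranks from 56.1 to 99.1, 36.5% (323 of 884) were lost at the distal SAP30-only acetylated regions, 29.9% (865 of 2891) elsewhere and 23.0% at promoters with SAP30. In group 3 the shares were 4.44% (14 of 315) and 1.82% elsewhere. In groups 1 and 2, 0 of 22 and 0 of 59 were lost. The 499 distal SAP30-only acetylated regions with Pol II in all 4 libraries had median Pol II ranks of 58.3 and 49.6 in parental cells and 55.8 and 60.3 in SAP30-KO1 (exact permutation p = 0.667), and these overlapped.

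**Figure D4:**
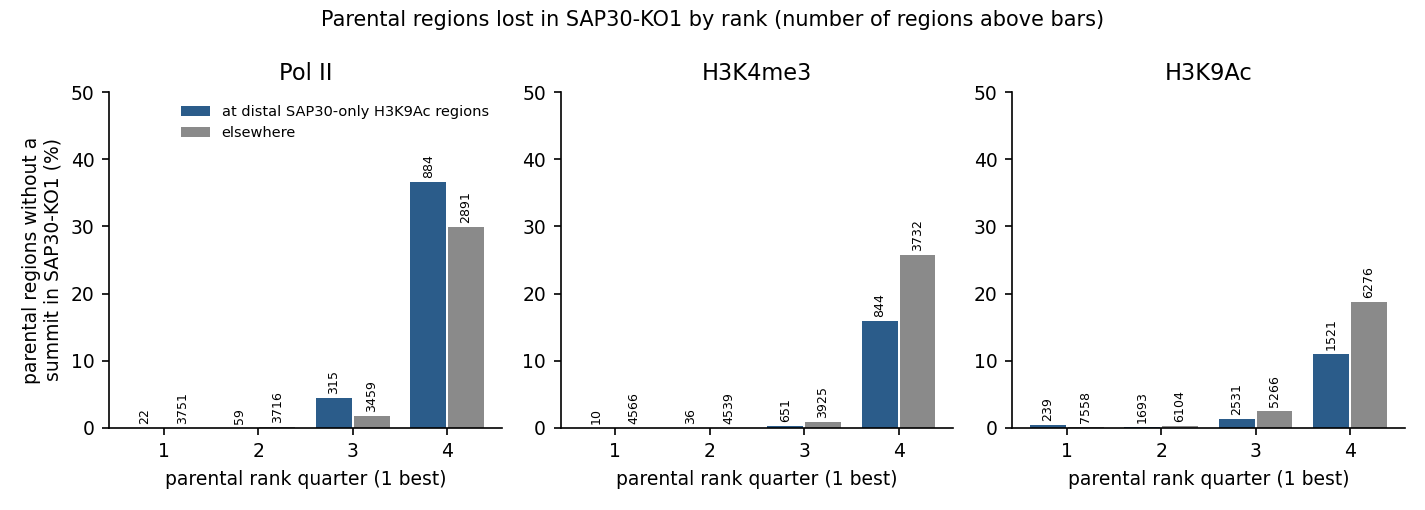
Percent of parental Pol II, H3K4me3 and H3K9Ac regions lost in SAP30-KO1, in 4 equal groups by parental rank (1 is the best), at distal SAP30-only acetylated regions and elsewhere, with the number of regions above each bar. Losses gather in group 4, where Pol II reached 36.5% at these regions and 29.9% elsewhere, while H3K9Ac reached 10.98% and 18.8%.

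By distal SAP30-only acetylated region, 322 had Pol II in both parental libraries and in neither knockout library, and 11 had the reverse. Regions with Pol II in all 4 libraries had 15.0 CpG per 301 bp and an AP-1 share of 29.5%, the 322 that lost it 11.5 CpG and 40.4%, and the regions without Pol II in any library, by coincidence also 3239, 6.76 CpG and 47.3%. Of the 322, 12 also had no H3K9Ac in both knockout libraries. That is about the share over all 5726 regions, where 215 (3.75%) lost it. Those that lost Pol II thus stood between the other classes in CpG and AP-1 content.

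Of the 4 best-ranked regions that lost Pol II, 3 had H3K9Ac in all 4 libraries. At HAPLN1, whose sequence is shown above with 17 CG dinucleotides, the region at chr5:83018073-83018083 lay 1.40 kb from the start site. Pol II had ranks of 42.8 and 50.4 in parental cells, and the nearest knockout Pol II summits lay over 247 kb away (247030 and 247510 bp). H3K9Ac there had ranks of 22.7 and 21.8 in parental cells and 35.1 and 29.0 in SAP30-KO1, and H3K4me3 46.1 and 51.8 against 59.0 and 53.1. Both marks therefore remained in all 4 libraries, at lower places in the knockout lists.

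Near GUCY2D the region at chr17:7893438-7893563 lay between genes, 12.4 kb from the start site. Pol II had ranks of 44.7 and 50.3 in parental cells and no summit in SAP30-KO1, while H3K9Ac had ranks of 26.3 and 37.0 in parental cells and 23.0 and 35.7 in SAP30-KO1. The other best-ranked losses lay in an exon of ZBTB45 near SLC27A5, a bile acid ligase gene, with parental Pol II ranks of 45.6 and 38.6, and in the 3′ UTR of LTC4S, leukotriene C4 synthase, with 46.7 and 46.1. H3K9Ac had a summit in all 4 libraries at LTC4S and in 3 of 4 at SLC27A5.

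The few gains were mostly of weak peaks. The exception was an intronic region of PPP1R10, which encodes a nuclear regulator of protein phosphatase 1, at chr6:30582765-30583926, with SAP30-KO1 Pol II ranks of 12.1 and 4.08. Parental Pol II summits lay just outside, 1061 and 1056 bp from the SAP30 summit against 455 and 537 bp in SAP30-KO1, so Pol II was present nearby in both lines. The next were an intron of BAIAP2L1, with SAP30-KO1 ranks of 51.3 and 76.2, and regions near ZNF311, with 65.0 and 64.2, and LMO4, with 65.4 and 93.6.

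H3K4me3 was likewise found at somewhat fewer regions in SAP30-KO1. It was in 28.5% and 29.0% of the distal SAP30-only acetylated regions in parental cells and 24.4% and 23.6% in SAP30-KO1, and the groups did not overlap. The difference of the means was -4.70 percentage points, with SDs of 0.346 and 0.543 (n = 2 each, exact permutation p = 0.333). The ratio of the means was 0.836, against 0.719 at distal H3K9Ac regions without SAP30 (12.1% and 8.71%) and 0.731 at distal SAP30-only regions without H3K9Ac (8.65% and 6.32%), and at promoter SAP30 regions the mean was 87.8% in both lines. At equal list length the difference at distal SAP30-only acetylated regions was -2.35 points (exact permutation p = 0.667).

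H3K4me3 losses were near the background. Of the parental H3K4me3 regions that met these regions, 136 of 1541 (8.83%) were lost, where 6.18% of all 18303 were, and 16 of 1300 (1.23%) were gained, where 1.25% of all 16843 were. Within group 4 of the H3K4me3 regions by rank the share lost was 15.9%, against 25.7% elsewhere. The 1134 regions with H3K4me3 in all 4 libraries had median ranks of 60.8 and 62.0 in parental cells and 70.6 and 65.9 in SAP30-KO1. That change of 6.85 rank points (exact permutation p = 0.333) compares with 2.31 over all parental H3K4me3 regions and 6.61 at distal H3K9Ac regions without SAP30.

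H3K9Ac remained at most of the distal SAP30-only acetylated regions after SAP30 knockout. The parental mark chose the regions, so its fall from 90.0% and 89.6% of regions to 82.0% and 84.1% in SAP30-KO1 is a description. The opposite set, chosen for lacking the mark, went the other way, from a mean of 16.9% to 24.0%. A summit extended by 500 bp met the region in both knockout libraries for 4919 regions (85.9%), in 1 for 592 (10.3%) and in neither for 215 (3.75%). The count of 215 was 411 and 611 when judged without SAP30-KO1 replicate 1 and without replicate 2, 386 and 438 when the parental choice rested on 1 H3K9Ac replicate, and 384 without SAP30 replicate 2.

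Against all parental H3K9Ac regions, losses at these regions were not frequent. Of the H3K9Ac consensus regions that met them, 206 of 5984 (3.44%) were lost, where 4.97% of all 31188 were, a comparison in which the rule used the parental side. At distal H3K9Ac regions without SAP30 the share was 11.5%, and at promoters with SAP30 it was 0.760%. Losses again lay among weak peaks: in 4 equal groups by parental H3K9Ac rank, 0.0698%, 0.699%, 3.14% and 11.1% of the 5726 regions lost the mark in both knockout libraries. In group 4 of the H3K9Ac regions by rank, 10.98% were lost at these regions and 18.8% elsewhere.

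A fairer measure chose the regions with 1 parental H3K9Ac replicate and read the other parental library beside the knockout ones. Chosen with replicate 1 (6404 regions), H3K9Ac was found in 88.3% in the other parental library and in 84.7% and 88.7% in SAP30-KO1. Chosen with replicate 2 (6181 regions), it was found in 91.5% in the other parental library and in 86.0% and 89.5% in SAP30-KO1. The knockout mean minus the parental value was thus -1.62 and -3.73 percentage points, where the knockout libraries themselves lay about as far apart or farther. The mean difference was -2.68 points, against -2.76 at promoter SAP30-only acetylated regions, -1.05 at distal acetylated regions with SIN3 and -4.43 at distal H3K9Ac regions without SAP30. The H3K9Ac lists held 54622 and 53651 summits in parental cells and 50862 and 50807 in SAP30-KO1. At equal list length the mean difference at distal SAP30-only acetylated regions was -1.29 points.

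The strength of the mark where it remained also differed by less than the libraries did. In the 3890 regions with an H3K9Ac summit in all 4 libraries the median ranks were 37.7 and 40.5 in parental cells and 43.8 and 39.8 in SAP30-KO1. The groups overlapped, with a difference of 2.68 rank points (exact permutation p = 0.667), against 1.85 over all parental H3K9Ac regions and 0.592 at promoter SAP30 regions. At equal list length the difference at distal SAP30-only acetylated regions was 0.156 rank points. A rise in H3K9Ac was not seen in these ranks, which cannot show a change of the mark that is shared by all peaks.

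The strongest loss of H3K9Ac was near MMP14, whose sequence is shown above. The region at chr14:23322414-23322417 lay between genes, 16.6 kb from the start site, with H3K9Ac ranks of 15.9 and 12.8 in parental cells. The nearest knockout H3K9Ac summits lay 1954 and 2013 bp away. H3K4me3 was in all 4 libraries, with ranks of 60.8 and 64.8 in parental cells and 78.0 and 79.1 in SAP30-KO1, so the region did not lose every mark.

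In an intron of ZNF148, at chr3:125076129-125076372 and 17.4 kb from its start site, all 3 marks were absent in SAP30-KO1. H3K9Ac had parental ranks of 33.4 and 39.9, H3K4me3 54.9 and 57.4, and Pol II 76.5 and 55.8. The nearest knockout summits of any of them were over 17 kb away (17223 to 17940 bp), near the distance of the ZNF148 start site. The next losses by rank were in introns of LHFPL2, with parental H3K9Ac ranks of 32.9 and 40.6, and LRRFIP1, with 37.7 and 37.9. Those near CALML3 and in the 3′ UTR of DHH, the hedgehog ligand, followed, and at CALML3 knockout summits lay only 1215 and 1199 bp away.

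The best-ranked SAP30 regions mostly showed H3K9Ac without Pol II. Near TRIB2, in an annotated intron at chr2:12596744-12596751 and 260 kb from the TRIB2 start site, SAP30 had ranks of 3.04 and 8.43. H3K9Ac there had ranks of 43.5 and 43.2 in parental cells and 33.5 and 35.4 in SAP30-KO1, and the nearest Pol II summits of the 4 libraries lay 130644 to 259543 bp away. The RUNX2 region lay in a RUNX2 intron, 23.5 kb from the start site, with SAP30 ranks of 5.04 and 10.3 and no Pol II in any library. Of the 6 best-ranked regions, 4 had a SIN3B summit in replicate 1, with ranks of 74.9 at TRIB2, 68.6 at RUNX2, 58.7 at MCFD2 and 22.6 at FCHO1. RUNX2 and FCHO1 also had a SIN3A summit in replicate 2, with ranks of 77.6 and 63.9. By Pol II, the regions of TRIB2, RUNX2, MCFD2 and TSPAN14 had no Pol II, SLC35E1 had it in both parental libraries alone, with weak ranks of 70.9 and 97.2, and FCHO1 in SAP30-KO1 replicate 1 alone. All 6 had H3K9Ac in all 4 libraries.

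The 5726 regions were nearest to 3516 of 20098 protein-coding genes (17.5%). For 2293 of these genes there was a single region, for 489 there were 3 or more, and those 489 took 34.3% of all regions. Counted over coding and noncoding genes, the nearest start site was that of a long noncoding RNA for 43.4% of the regions. Nearest gives position only, and no gene was tested as a target of a region.

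The 12 genes with most regions had 8 to 14 each. EXT1, which builds heparan sulfate, had 14. KCNMA1, a potassium channel, and RUNX1, a Runt-family factor, had 11 each, and LPIN1, a phosphatidate phosphatase, SVIL, an actin-binding protein, and NRP1, a coreceptor for VEGF and semaphorins, had 9 each. SEPTIN9, FOXP1, AFAP1, TNS3, HIVEP3 and RIPK4 had 8 each. Several counts rested on 1 library. Without SIN3B replicate 2, SVIL had 3, AFAP1 and SEPTIN9 4 each, FOXP1 and HIVEP3 5 each and RUNX1 7, and TNS3 had 5 without SIN3B replicate 1 and 13 without SAP30 replicate 2. In the better-ranked 50% of each list, all 12 fell to between 0 and 3, with 0 for RUNX1, SVIL, FOXP1, AFAP1 and RIPK4. KCNMA1 differed from the other 11 in having no Pol II, H3K4me3 or H3K9Ac summit within 1000 bp of its start sites in any library. Of its 11 regions, 8 held the AP-1 motif, and 3 and 3 had Pol II in parental cells against 1 and 1 in SAP30-KO1.

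Pol II was uncommon at the regions of these genes. At EXT1 it was at 0 and 1 of the 14 regions in parental cells and at none in SAP30-KO1, and at SVIL at none of 9 in any library. LPIN1 had it at 2 and 4 of 9 in parental cells and 2 and 1 in SAP30-KO1, and RIPK4, a kinase of epithelial differentiation, at 3 and 4 of 8 and then 4 and 2. H3K9Ac was lost in both knockout libraries at 1 region of RUNX1 and 1 of SVIL, and at none for the other 10 genes.

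Regions seldom formed dense stretches. When neighbouring regions were joined across the gap customary for super-enhancers, 4160 (72.7%) stood alone, 704 stretches held 2 or more, 126 held 3 or more and 7 held 5 or more. The stretch near VXN held 6, with Pol II at all 6 in both parental libraries and at 4 in each knockout library. A stretch nearest to MYOF, the membrane repair gene myoferlin, held 5 over 17.1 kb, all in introns, 4 of them with the AP-1 motif, with Pol II at 1 and 2 in parental cells and 1 and 0 in SAP30-KO1. Others of 5 had EDN2, RPL26L1, COL4A2, or CUEDC1 and MRPS23, as their nearest genes.

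Genes of adhesion, mesenchymal state and growth factor signalling were often the nearest gene. The lists were drawn up with earlier results of these data known, and their counts are set beside the 17.5% of all protein-coding genes. A distal SAP30-only acetylated region was nearest to 16 of 22 genes of the YAP and TEAD pathway (72.7%), 21 of 30 of focal adhesion and actin (70.0%), 17 of 25 of the TGF-beta pathway (68.0%), 17 of 26 angiogenesis ligands and receptors (65.4%) and 15 of 25 mesenchymal genes (60%). It was nearest to 9 of 20 cytokines and chemokines (45.0%), 10 of 29 luminal and epithelial genes (34.5%) and 3 of 14 AP-1 subunits (21.4%). The AP-1 count rested on single libraries, with 1 gene without SIN3B replicate 2 and 5 without SAP30 replicate 1 or H3K9Ac parental replicate 2. Cytosolic ribosomal proteins, with 9 of 77 (11.7%), were below all genes. Markers of T and B lymphocytes, a lineage foreign to this line, had 2 of 14 (14.3%). That is near the share of all genes, and the count ran from 0 to 2 under the alternatives. Of all distal SAP30-only regions, with or without H3K9Ac, 64.8% carried the mark. Among lists with nearest-gene shares of 60% or more, this share ran from 66.7% (focal adhesion) to 82.5% (mesenchymal). It was 83.3% for cytokines, 71.4% for luminal genes, 66.7% for lymphocyte markers, 61.8% for ribosomal proteins and 46.2% for AP-1 subunits. Whether nearness to any list is particular to the acetylated regions was not tested. The part of gene length and of distance between genes in the nearest-gene shares was not tested.

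**Figure D5:**
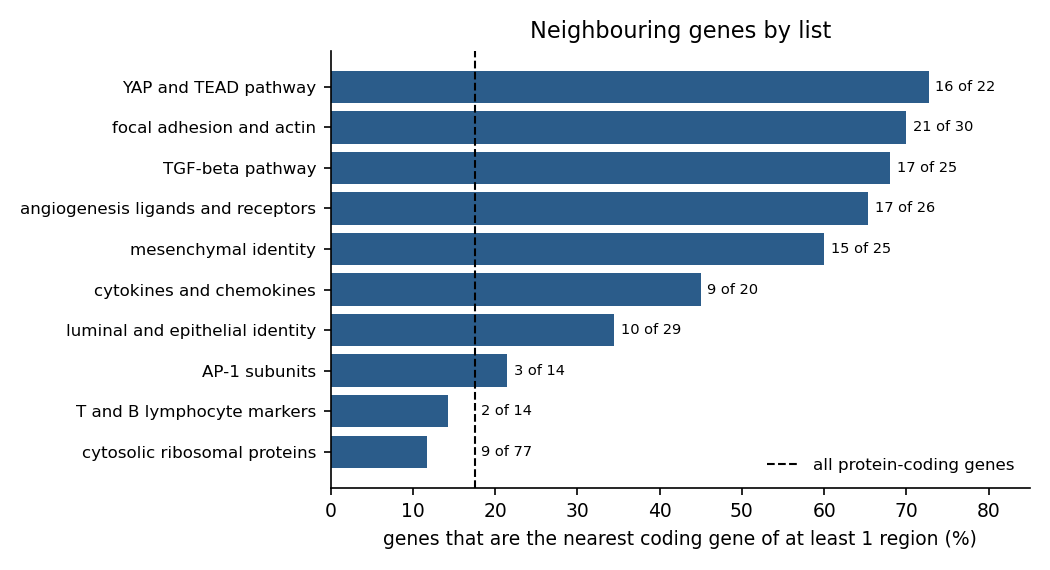
Percent of the genes of each list that are the nearest protein-coding gene to at least 1 distal SAP30-only acetylated region; the dashed line is all protein-coding genes, 17.5%. YAP and TEAD, focal adhesion, TGF-beta, angiogenesis and mesenchymal lists stand at 60 to 72.7%. The ribosomal list lies below the line, and the lymphocyte list, with 2 of 14 genes, lies near it.

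Pol II counts by list are read beside the share over all 5726 regions, 26.2% and 34.9% in parental cells and 20.3% and 15.3% in SAP30-KO1. Lists far from the theme of the study fell too: Pol II was at 3 and 5 of 21 regions of ribosomal protein genes in parental cells and at 0 and 1 in SAP30-KO1, and at 1 and 1 of the 2 regions of lymphocyte markers and then at 0 and 0. No list was shown to differ from all regions in this. Many of the ribosomal regions lay far from the gene they were counted for. RPS24 had 5 at a median of 425 kb from its start site, RPS23 4 at 115 kb and RPLP1 3 at 142 kb.

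Within the TGF-beta list, SMAD3, a signal transducer, had 7 regions, and ID1, an inhibitor of transcription factors, SMAD6, an inhibitory SMAD, and TGFB2, a ligand, had 4 each. Pol II was at 13 and 15 of the list's 42 regions in parental cells and at 8 and 7 in SAP30-KO1. SMAD6 had it at 3 and 3 of 4 in parental cells and 1 and 1 in SAP30-KO1. In the YAP and TEAD list, AMOTL2 had 4 regions and TEAD1, the DNA-binding partner of YAP, had 3. There Pol II was at 10 and 13 of 33 regions in parental cells and 10 and 10 in SAP30-KO1, so the groups met at 10.

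The angiogenesis list had Pol II at 11 and 10 of 36 regions in parental cells and at 4 and 2 in SAP30-KO1. NRP1 had 9 of the 36. The growth factor PDGFA had 4, with Pol II at 3 and 3 in parental cells and 1 and 1 in SAP30-KO1, and the lymphatic growth factor VEGFC had 3, with 1 and 2 against 0 and 0. Its relative PDGFC had 4 regions, with H3K9Ac inside 3 and 2 of them in parental cells and 2 and 0 in SAP30-KO1. Lists share genes, since NRP1 and TGFB2 each stand in a pair of them, and these counts were not tested.

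In the focal adhesion list, ITGA2 and ITGB5 (integrin chains) and MSN (moesin) had 4 regions each. Pol II was at 5 and 12 of its 42 regions in parental cells and 4 and 4 in SAP30-KO1. The mesenchymal list, with COL5A1, CD44 and LOXL2, had it at 9 and 10 of 33 and then 7 and 3. Cytokines had it at 8 and 8 of 20 and then 6 and 4, and LIF differed from the list in keeping Pol II, at 4 and 3 of its 5 regions in parental cells and 4 and 4 in SAP30-KO1. IL6 had 3 regions with no Pol II in any library and H3K9Ac in all 3 in both parental libraries. Among luminal genes, ELF3 had 3 regions and CDH1 (E-cadherin) and KRT8 had 2 each, although neither ELF3 nor CDH1 had Pol II within 1000 bp of its start sites.

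Genes that the study followed had 1 or none of these regions each. Over all protein-coding genes, 17.5% were nearest to at least 1. PDGFB, RDX, NOTCH3, ARTN and HSPA6 each had 1, and PDGFD, CLDN1, ADM2, IPO13 and SAP30 had none. The RDX region, 61.0 kb from the start site of this gene for the membrane linker radixin, had H3K9Ac in both parental libraries and in neither knockout library. The PDGFB region, 35.4 kb away, and the NOTCH3 region, 9.44 kb away, had H3K9Ac in all 4 libraries and no Pol II. The HSPA6 region, at 6.25 kb, had Pol II and H3K9Ac in all 4, and the ARTN region, at 3.59 kb, had H3K9Ac in both parental libraries and in SAP30-KO1 replicate 1.

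The promoters of neighbouring genes carried Pol II more often than those of all genes. A Pol II summit lay within 1000 bp of a start site for 71.8% and 72.9% of the 3516 genes in parental cells and 69.5% and 66.6% in SAP30-KO1. For all protein-coding genes the shares were 58.4% and 59.4%, and 57.0% and 55.0%. For the 489 genes with 3 or more regions they were 81.8% and 83.2%, and 78.9% and 75.7%. For the 1442 genes nearest only to distal SAP30-only regions without H3K9Ac they were 62.8% and 64.1%, and 61.0% and 58.3%. H3K9Ac at the start sites of the 3516 genes was at 76.7% and 76.6% in parental cells and 76.2% and 76.3% in SAP30-KO1.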

How the data were processed

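ChIP-seq summit lists of 18 libraries (9 groups of 2) were used. Per the labels, the authors' processing used FastQC 0.11.2, Bowtie2 2.3.3.1, Picard and MACS2 2.1.0 on hg19 (submitters' processing notes). The control behind each list and the caller's options are not given in the sources used here. The deposited score is −log10 of the q-value, with a lowest value of 1.30, and it was used only as a percent rank within its own list.

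Groups followed the labels. Summits of both replicates were extended by 500 bp and merged with Python 3.11.15, numpy 2.4.6 and pandas 2.3.3. Start sites and places came from GENCODE release 44 for GRCh37, and sequence was read with pysam 0.24.0. The shares and median ranks of libraries were compared by two-sided exact permutation tests, with no correction, as none can pass. The steps were tested on simulated lists. Regions and gene lists were chosen with earlier results of these data known. Named genes and regions were those with most regions, the best ranks among SAP30, lost and gained peaks, the most regions in a stretch or list, and the genes the study followed. The C/EBP motif and the AP-1 summit sequences were added after seeing the data. Alternatives changed the extension, list length, start site window, overlap, SIN3 rule, motif window, chromosome 11 and single libraries.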

Additional observations from a re-analysis of the deposited data

How the results depend on the processing

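No difference changed its direction under the alternatives that were run. With summits extended by 250 bp, 338 regions lost H3K9Ac and 42.5% held the AP-1 motif, and with 1000 bp the distance to a start site was 16.2 kb and the AP-1 share 44.2%. The better-ranked 50% of each list left 1559 regions, of which 80 lost H3K9Ac, with a distance of 11.5 kb, an AP-1 share of 35.5% and 53 list genes in place of 119. A start site window of 3000 bp gave 17.9 kb and 44.7%, and protein-coding start sites alone 27.0 kb and 41.7%. Without a SIN3A or SIN3B summit in either replicate there were 3239 regions at 15.4 kb. A motif window of 75 bp to each side gave an AP-1 share of 30.4%. The causes of these shifts were not tested.

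Leaving out 1 library at a time gave 3909 to 8122 regions, 193 to 611 regions that lost H3K9Ac and AP-1 shares of 41.8% to 44.5%. The Pol II difference ranged from -17.1 to -8.43 points, that of H3K4me3 from -5.08 to -4.31 and that of the H3K9Ac rank from 0.600 to 4.49. The H3K9Ac retention difference ranged from -3.44 to -2.62 points where it could be computed, which left out the 4 settings without an H3K9Ac library. The distance ranged from 14.5 to 15.1 kb and the list genes from 96 to 129.

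Replicate numbers are shared between lines, and the labels do not say what else libraries of the same number share. Correlations of their rank deviations were 0.0078 at Pol II peaks, -0.0307 at H3K4me3 peaks and -0.0211 at those of H3K9Ac. Ranks within a list cannot show a shift common to the whole list, so these values do not settle the question. With the number as a replicate block the Pol II differences were -5.90 and -19.6 points (mean -12.7, exact permutation p = 0.5), those of H3K4me3 -4.07 and -5.33 (exact permutation p = 0.5) and those of the H3K9Ac rank 6.02 and -0.670 (exact permutation p = 1), and 0.5 is the smallest p this block allows.

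Peak lists limit what can be seen. They hold no signal below the caller's threshold, ranks show no change common to all peaks, and the depth and the control of each list are unknown, so their part in the differences between libraries was not tested.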
